A study of Mus musculus with 30 samples.

Results

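The second 3 h interval of a fungal challenge was compared with the first time point in wild-type dendritic cells: 3 WT libraries taken 6 h after the fungus was added were set against 3 WT libraries taken at 3 h, out of 30 libraries in the study. The comparison is a step between consecutive times, so a gene that had already changed by 3 h and then held its level is not counted. The groups were fixed by the sample labels alone, and all genes of the count table were examined.

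All libraries held bulk RNA of mouse bone marrow cells grown for 6 days with GM-CSF (the cytokine used to grow dendritic cells from marrow), with fresh medium on day 3. Plates held 500000 cells in each well, and challenged wells received 500000 live conidia (airborne spores) of the mould Aspergillus fumigatus, isolate AF29. The WT 6 h and WT 3 h groups both came from wild-type mice and received conidia. Used beside them were KO 6 h and KO 3 h, the same challenge in cells of mice deficient in Nlrx1, a NOD-like receptor family protein of mitochondria, and WT cells at 0 h (no conidia), 9 h and 12 h, with 3 libraries in each group. No strain, sex or age is named in the labels. Whether replicates were separate cultures or mice is not stated either, and p-values therefore reflect only the spread among these libraries, which may be technical.

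A dendritic cell takes up conidia through receptors such as dectin-1, contains them in phagosomes and kills them with oxidants and lysosomal enzymes. Resting conidia are coated and weakly stimulating; as they swell and germinate, more of their cell wall is exposed. Uptake and oxidants draw on membrane lipid, glutathione and iron handling, and these pathways have transcriptional controls of their own: SREBP2 for sterol synthesis, NRF2 for antioxidant genes, and Myc for ribosome building.

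Total counts were 2405405 to 2505389 per library at WT 6 h and 2020967 to 2567135 at WT 3 h. Of 54532 genes in the table, 12393 had enough counts to be tested. CPM (counts per 1e+06) is given after scaling between libraries, and a log2 change is WT 6 h minus WT 3 h ± a standard error from the fit over all 30 libraries. That error was derived, as the size of the change divided by the square root of the F statistic of its test. Adjusted p-values come from quasi-likelihood tests in edgeR, corrected by Benjamini-Hochberg over the 12393 genes, and a gene is said to have risen or fallen if that value is under 0.05. Small structural RNA genes took 6.29 to 6.74% of counts at WT 6 h and 6.46 to 6.80% at WT 3 h, and the 2 mitochondrial ribosomal RNAs took 7.52 to 8.43% at WT 6 h and 6.80 to 7.07% at WT 3 h. With the small RNA share as a covariate 246 genes passed, against 234 without it. The part of the mitochondrial ribosomal RNA share was not tested. Nlrx1 had 14 to 32 counts at WT 6 h, 13 to 22 at WT 3 h and 0 to 14 in any KO library; its log2 change in WT was 0.12 ± 0.55 (edgeR adjusted p = 0.971).

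The step was small. In all 234 genes passed the threshold, 1.89% of those tested: 99 rose (0.799%) and 135 fell (1.09%). A change of at least 2-fold was found for 31 of them, 19 higher and 12 lower at 6 h. The median log2 change was 0.53 among the rises, -0.40 among the falls and 0.01 over all tested genes. In 233 of the 234 the 3 libraries of one time lay wholly above the 3 of the other, which was so for 18.7% of all tested genes. With 1 of the 6 libraries left out, 105 to 198 genes passed: 198 without WT 6 h replicate 1, 122 without replicate 2 and 105 without replicate 3, and 177, 150 and 163 without WT 3 h replicates 1, 2 and 3 in that order. A core of 67 genes, 27 rises and 40 falls, passed in all 6 of these fits. The 99 rises, the 19 of at least 2-fold and the 27 of the core each include 4 copies of a ribosomal RNA. These copies had nearly the same counts and stand for 1 measurement, as described below. For the genes given below with an adjusted p of their own, the call held with any 1 of the 6 libraries left out unless the libraries that ended it are named.

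Cholesterol synthesis and uptake, the list of genes that SREBP2 controls, had the largest share of members past the threshold. Of 23 tested members 8 rose and none fell, or 34.8% against 1.89% of all genes. All 23 log2 changes were positive, with a median of 0.62 against 0.01 over all genes. In 14 members the WT 6 h libraries all lay above the WT 3 h ones, against 9.51% of all genes. Among the 8 were Hmgcs1, Fdft1, Sqle, Msmo1, Sc5d and Insig1, and 5 of the 8 passed in every fit with a library left out. With a library left out the count was lowest, at 5, without WT 3 h replicate 2 or without WT 3 h replicate 3. It was 4 with no count filter or in the 6 WT libraries alone, and 0 with a replicate block in those 6 or against a fold of 1.2.

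Promoter sequence is shown because these genes moved together and sterol control acts at their promoters through an SRE, usually with a CCAAT box bound by NF-Y nearby. RefSeq's table for GRCm38.p6 had entries for 17 of the 25 list members and 4 of the 8 that rose (Msmo1, Hmgcs1, Insig1 and Sc5d). The 250 bases before the start are given for Hmgcs1 (chr13:119690101-119690350, plus strand) and Sc5d (chr9:42264301-42264550, minus strand), whose windows lie outside the gene in the GENCODE M21 annotation too. Capitals mark a match on either strand to TCACNCCAC, an SRE core with 1 free base, or to CCAAT, which reads ATTGG on the other strand.
Hmgcs1: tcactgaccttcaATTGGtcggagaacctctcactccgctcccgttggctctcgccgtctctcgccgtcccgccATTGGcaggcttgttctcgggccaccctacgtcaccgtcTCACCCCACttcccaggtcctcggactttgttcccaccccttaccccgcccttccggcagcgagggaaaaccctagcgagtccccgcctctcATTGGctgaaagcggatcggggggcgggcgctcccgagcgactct
Sc5d: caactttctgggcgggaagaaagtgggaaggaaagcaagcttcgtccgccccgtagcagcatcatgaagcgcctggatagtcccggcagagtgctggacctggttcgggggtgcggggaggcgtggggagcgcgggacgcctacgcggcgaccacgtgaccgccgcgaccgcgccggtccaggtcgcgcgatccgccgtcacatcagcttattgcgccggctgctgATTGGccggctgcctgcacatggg
The Hmgcs1 window holds 1 SRE core, TCACCCCAC, at bases -137 to -129 counted back from the start, and 3 CCAAT boxes at bases -237 to -233, -176 to -172 and -45 to -41. The Sc5d window holds 1 CCAAT box at bases -24 to -20 and no SRE core of these letters. CCAAT was found in 16 of the 20 promoter entries of the list (80.0%) and in 33.8% of all 32851 promoters of this length. The core TCACNCCAC was in 1 of the 20 and in 1.05% of all promoters. GGGCGG, the GC box, was in 17 of the 20 and in 32.7% of all promoters. These matches are a description of the letters, not of binding, and a part of sterol control in the step was not tested.

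Early enzymes of the pathway come first. Hmgcs1, which makes HMG-CoA, had 50.9, 65.2 and 58.3 CPM in WT 6 h libraries, against 33.9, 31.9 and 31.6 CPM in WT 3 h libraries, a log2 change of 0.84 ± 0.16 (edgeR adjusted p = 0.00321). For this gene the lowest 6 h library lay above the highest 3 h library. Fdft1 and Sqle, which make squalene and its epoxide, had log2 changes of 1.36 ± 0.33 (edgeR adjusted p = 0.0222) and 0.74 ± 0.18 (edgeR adjusted p = 0.027). Both had no overlap between times but fewer counts: Fdft1 had 21.2 to 29.6 CPM at WT 6 h and 6.43 to 12.9 CPM at WT 3 h, and Sqle 29.3 to 35.9 CPM at WT 6 h and 17.8 to 21.1 CPM at WT 3 h. The Fdft1 call ended without WT 6 h replicate 2 or 3 or WT 3 h replicate 2 or 3 (edgeR adjusted p 0.0612 to 0.145), and the Sqle call ended without WT 6 h replicate 1 or 3 or any single WT 3 h replicate (edgeR adjusted p 0.0631 to 0.131).

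Msmo1, a demethylase of the later pathway, had 49.7, 48.1 and 51.6 CPM at WT 6 h, against 25.5, 29.7 and 25.7 CPM at WT 3 h (log2 change 0.89 ± 0.16, edgeR adjusted p = 0.00221). Its 6 h libraries lay close together and well clear of the 3 h ones. Sc5d, a desaturase near the end of the pathway, had 25.8 to 32.8 CPM at WT 6 h and 16.8 to 21.4 CPM at WT 3 h (log2 change 0.70 ± 0.16, edgeR adjusted p = 0.017); without WT 6 h replicate 1 or 2 or WT 3 h replicate 2 or 3 its edgeR adjusted p was 0.0656 to 0.0926. Insig1, which holds SREBPs back in the endoplasmic reticulum and is itself an SREBP target, had 37.4, 34.6 and 32.5 CPM at WT 6 h, against 21, 20 and 17.8 CPM at WT 3 h (log2 change 0.82 ± 0.17, edgeR adjusted p = 0.00725). The Insig1 libraries did not overlap between times. Idi1, an isomerase of the same pathway, had 20.4, 17.5 and 19 CPM at WT 6 h and 15.8, 14.1 and 17.3 CPM at WT 3 h, with a log2 change of 0.27 ± 0.39 (edgeR adjusted p = 0.874). Of 14 tested genes for sterol efflux and LXR targets, 1 rose and 2 fell (21.4% called against 1.89% of all genes), with a median of 0.00. Abca1, the cholesterol exporter, had 172, 146 and 153 CPM at WT 6 h, against 213, 204 and 201 CPM at WT 3 h (log2 change -0.40 ± 0.08, edgeR adjusted p = 0.00663; 0.0564 without WT 6 h replicate 2). Scd2, a fatty acid desaturase, rose with a log2 change of 0.41 ± 0.09 (edgeR adjusted p = 0.0122; 0.0708 without WT 3 h replicate 2). The third was Apoe, a lipid carrier that is also a macrophage marker and is given with those markers.

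**Figure D1:**
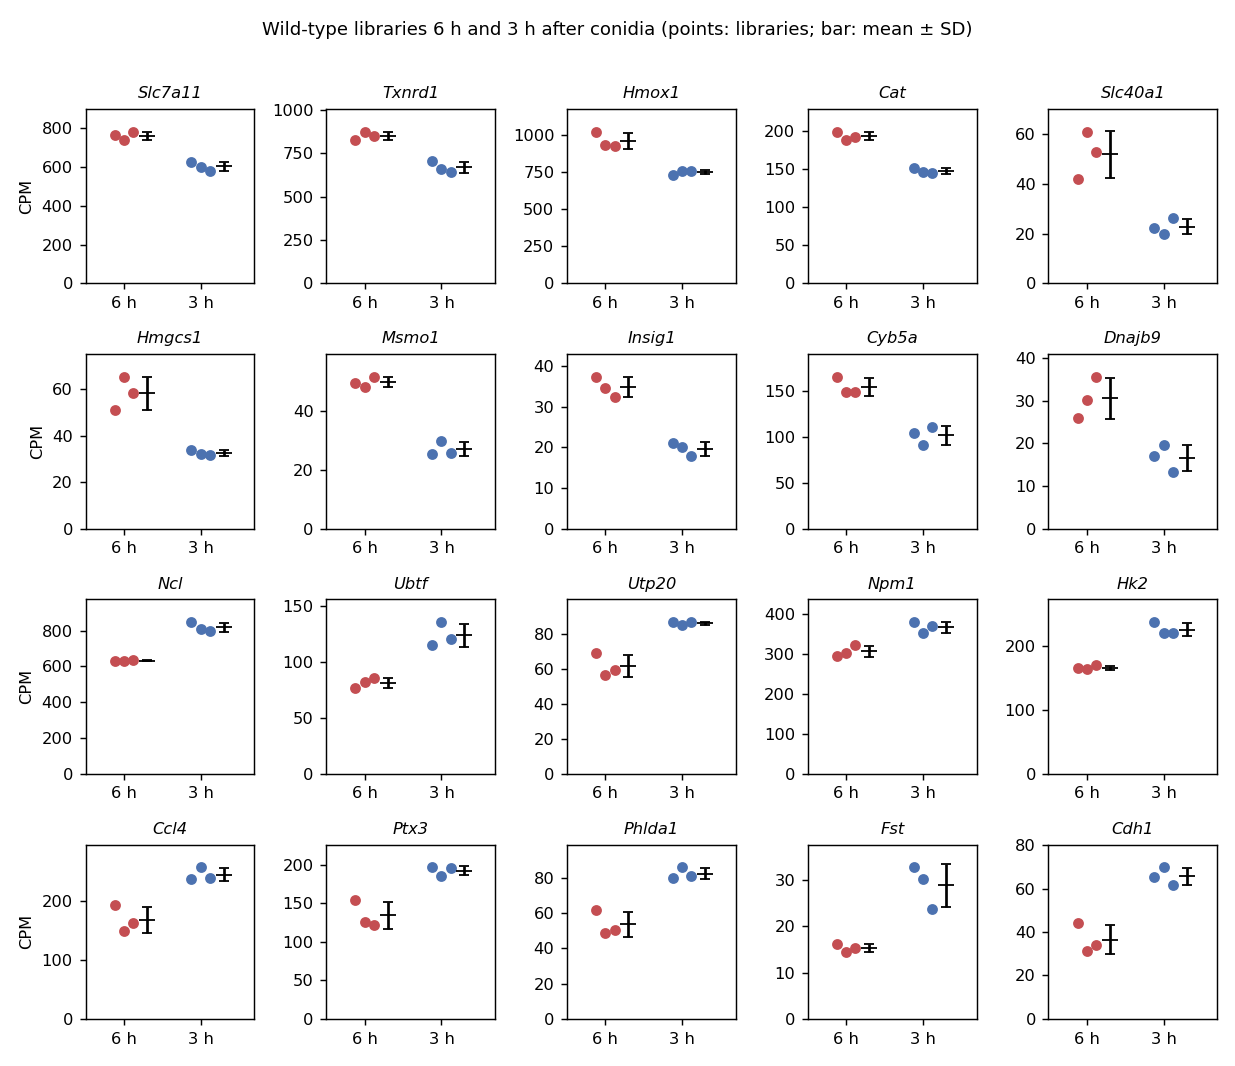
Expression (CPM, linear axes from 0) of 20 genes in each WT library, 6 h left of 3 h; points are libraries and bars are means ± SD (n = 3). The upper 10 genes are higher at 6 h and the lower 10 are lower, with no overlap between times in any panel.

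Antioxidant genes under NRF2 rose as well. Of 27 tested members 8 rose and none fell (29.6% against 1.89% of all genes), with a median log2 change of 0.29. The 8 were Slc7a11, Txnrd1, Pgd, Cat, Hmox1, Gss, Gstm1 and Taldo1, of which the first 5 passed with any library left out. Slc7a11 (chr3:49892526-50443614, minus strand), the transporter that imports cystine for glutathione, had the smallest p-value of all tested genes in the step. It had 764, 739 and 782 CPM in WT 6 h libraries, against 629, 602 and 579 CPM in WT 3 h libraries, a log2 change of 0.34 ± 0.03 (edgeR adjusted p = 5.12e-06). That is 1.26-fold, with no overlap between times.

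Txnrd1, thioredoxin reductase, had 829, 873 and 850 CPM at WT 6 h, against 705, 659 and 643 CPM at WT 3 h (log2 change 0.35 ± 0.04, edgeR adjusted p = 1.01e-04). Hmox1, which breaks down heme, had 1019, 932 and 924 CPM at WT 6 h, against 731, 757 and 756 CPM at WT 3 h (log2 change 0.36 ± 0.06, edgeR adjusted p = 0.00142). Catalase (Cat), which removes hydrogen peroxide, had 199, 189 and 193 CPM at WT 6 h, against 152, 147 and 145 CPM at WT 3 h (log2 change 0.39 ± 0.06, edgeR adjusted p = 0.00131). The lowest 6 h library lay above the highest 3 h library for all 3 genes. Pgd and Taldo1, enzymes of the pentose phosphate pathway that regenerates NADPH, had log2 changes of 0.29 ± 0.04 (edgeR adjusted p = 6.3e-04) and 0.37 ± 0.09 (edgeR adjusted p = 0.0199). The Taldo1 call ended without any single WT 6 h replicate or without WT 3 h replicate 2 or 3 (edgeR adjusted p 0.0514 to 0.156). Gss, glutathione synthetase, had 68.3, 67.8 and 49.4 CPM at WT 6 h, against 43.6, 41.1 and 47 CPM at WT 3 h. Its replicate 3 at 6 h lay close to the 3 h libraries, and the call (log2 change 0.49 ± 0.11, edgeR adjusted p = 0.014) ended without WT 6 h replicate 1 or 2 or WT 3 h replicate 1 or 2 (0.054 to 0.0971). Gstm1, a glutathione transferase, rose with a log2 change of 0.37 ± 0.09 (edgeR adjusted p = 0.0251) and lost its call when any single one of the 6 libraries was left out (0.0551 to 0.125). Gclm, the regulatory subunit of the enzyme that starts glutathione synthesis, had 246, 249 and 213 CPM at WT 6 h and 141, 185 and 117 CPM at WT 3 h; its spread in the study was wide and it did not pass (log2 change 0.68 ± 0.29, edgeR adjusted p = 0.334).

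Among 19 tested genes of iron, heme and metal handling 1 rose and none fell, 5.26% against 1.89% of all genes. A single call is near the background for the list. Slc40a1 (ferroportin, chr1:45908068-45926523, minus strand), the exporter of iron from cells, had 42, 60.8 and 52.8 CPM in WT 6 h libraries, against 22.2, 20 and 26.2 CPM in WT 3 h libraries. That was a 2.27-fold difference, with a log2 change of 1.18 ± 0.16 (edgeR adjusted p = 1.76e-04), and the times did not overlap. Tfrc, the transferrin receptor that takes iron in, had 43.7, 57.8 and 44.4 CPM at WT 6 h and 69.1, 56.2 and 66.2 CPM at WT 3 h. The times overlapped for Tfrc and it did not pass (log2 change -0.40 ± 0.12, edgeR adjusted p = 0.0974).

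Chaperones and lipid handling added smaller groups. Of 37 tested genes of the unfolded protein and integrated stress response, 5 rose and 1 fell (16.2% called against 1.89% of all genes), with a median of 0.06. Among the 5 was Slc7a11, already counted in the NRF2 list. Of the 6 calls 2, those of Slc7a11 and Dnajb9, held in every fit with a library left out. Dnajb9, an endoplasmic reticulum co-chaperone, had 25.9, 30.2 and 35.5 CPM at WT 6 h, against 17, 19.5 and 13.3 CPM at WT 3 h (log2 change 0.88 ± 0.16, edgeR adjusted p = 0.00279). Pdia4, a disulfide isomerase, rose by 0.23 ± 0.05 on the log2 scale (edgeR adjusted p = 0.0125; 0.0544 without WT 6 h replicate 1, 0.0693 without WT 3 h replicate 2 and 0.0517 leaving out WT 3 h replicate 3). Among 20 heat shock chaperones 3 rose and 2 fell (25% called against 1.89% of all genes), with a median of 0.05. The falls, of Hspa9 and Hsp90ab1, were lost in every fit with a library left out. Hspa1b had 28.4, 38.1 and 38 CPM at WT 6 h, against 19, 20 and 17.8 CPM at WT 3 h (log2 change 0.88 ± 0.14, edgeR adjusted p = 6.3e-04). Its near-identical copy Hspa1a, an inducible Hsp70 as well, had a log2 change of 0.72 ± 0.13 (edgeR adjusted p = 0.00261); reads of the pair may be split between them. Cd36, a scavenger receptor that takes up oxidised lipid, had 1505, 1529 and 1615 CPM at WT 6 h, against 1309, 1363 and 1266 CPM at WT 3 h (log2 change 0.24 ± 0.04, edgeR adjusted p = 0.00221). Lipa, the lysosomal lipase that frees cholesterol from its esters, had 969, 942 and 965 CPM at WT 6 h, against 765, 783 and 760 CPM at WT 3 h (log2 change 0.32 ± 0.07, edgeR adjusted p = 0.00829). Cd36 and Lipa were the 2 rises among 24 genes of PPAR-gamma and fatty acid handling, none of which fell (8.33% called against 1.89% of all genes). The median of that list was 0.09.

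Ribosome building moved the other way. Of 37 tested genes in the Myc and ribosome biogenesis list, none rose and 10 fell (27.0% against 1.89% of all genes), with a median log2 change of -0.35. In 25 of the 37 all WT 6 h libraries lay below all WT 3 h libraries, against 9.17% of all genes, and 2 of the 37 had a positive change. The 10 were Myc, Ncl, Npm1, Nop58, Nolc1, Utp20, Ddx21, Heatr1, Noc3l and Mybbp1a, of which Ncl, Npm1 and Utp20 passed with any library left out. The count was 4 without WT 6 h replicate 2 and 3 leaving out WT 6 h replicate 3 or without WT 3 h replicate 1.

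Ncl (nucleolin, chr1:86344719-86359400, minus strand), a major nucleolar protein, had 629, 631 and 634 CPM in WT 6 h libraries, against 848, 809 and 799 CPM in WT 3 h libraries (log2 change -0.38 ± 0.05, edgeR adjusted p = 5.12e-05). Npm1, nucleophosmin, had 296, 301 and 322 CPM at WT 6 h, against 380, 351 and 369 CPM at WT 3 h (log2 change -0.26 ± 0.05, edgeR adjusted p = 0.00267). Utp20, part of the machinery that makes the small ribosomal subunit, had 68.8, 56.4 and 59.2 CPM at WT 6 h, against 86.5, 84.9 and 86.5 CPM at WT 3 h (log2 change -0.48 ± 0.09, edgeR adjusted p = 0.00221). None of these 3 overlapped between times. Ubtf, a transcription factor of RNA polymerase I that is not in the list, was among the 10 genes of smallest p-value, with 76.4, 81.4 and 85.4 CPM at WT 6 h, against 115, 135 and 120 CPM at WT 3 h (log2 change -0.60 ± 0.08, edgeR adjusted p = 1.04e-04). Myc itself had 34, 29.3 and 27.9 CPM at WT 6 h, against 57.4, 47.6 and 44 CPM at WT 3 h, a log2 change of -0.71 ± 0.16 (edgeR adjusted p = 0.0169). The Myc libraries did not overlap, but its edgeR adjusted p was 0.0785 without WT 6 h replicate 2, 0.101 without WT 6 h replicate 3 and 0.122 leaving out WT 3 h replicate 1.

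In the inflammatory list, 4 of 30 tested cytokines and chemokines fell (13.3% called against 1.89% of all genes) and none rose, where 0.799% of all genes did. The median was -0.08. Ccl4, a chemokine for T cells and monocytes, had 192, 149 and 163 CPM at WT 6 h, against 237, 257 and 238 CPM at WT 3 h (log2 change -0.54 ± 0.09, edgeR adjusted p = 0.0015). Ptx3, a soluble pattern receptor that binds Aspergillus conidia, had 154, 126 and 122 CPM at WT 6 h, against 197, 185 and 196 CPM at WT 3 h (log2 change -0.52 ± 0.09, edgeR adjusted p = 0.00193). Neither overlapped between times. Tgfb1 and Ccl9 were the other falls, of -0.28 ± 0.06 (edgeR adjusted p = 0.00688; 0.0506 without WT 6 h replicate 3) and -0.22 ± 0.05 (edgeR adjusted p = 0.0116; 0.0836 without WT 6 h replicate 2, 0.0597 without WT 6 h replicate 3 and 0.0535 leaving out WT 3 h replicate 2). Tnf had 96.8, 77 and 77.3 CPM at WT 6 h and 80.4, 69.2 and 76.1 CPM at WT 3 h (log2 change 0.15 ± 0.11, edgeR adjusted p = 0.67), and Cxcl2, a neutrophil chemokine, had 154, 144 and 131 CPM at WT 6 h and 141, 119 and 141 CPM at WT 3 h (log2 change 0.09 ± 0.11, edgeR adjusted p = 0.828). The times overlapped for both. Il1b had 19.5, 15.8 and 24.1 CPM at WT 6 h and 28.7, 28.6 and 24.2 CPM at WT 3 h; the times just failed to overlap, and the gene did not pass (log2 change -0.46 ± 0.13, edgeR adjusted p = 0.132). Outside this list the cytokine Gdf15, of the stress response list, rose, with 13.6, 21.9 and 17.8 CPM at WT 6 h, against 9.3, 4.32 and 8.9 CPM at WT 3 h (log2 change 1.21 ± 0.30, edgeR adjusted p = 0.0302; 0.0577 to 0.165 without WT 6 h replicate 2 or 3 or WT 3 h replicate 2 or 3). The alarmins S100a8 and S100a9, which rose, are given with the neutrophil markers.

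No gene passed among 30 NF-kappaB subunits and feedback genes, 46 interferon-stimulated genes, 13 MHC class II presentation genes, 43 nuclear-encoded and 13 mitochondrially encoded respiratory chain genes, 30 survival and death genes and 30 cell cycle genes. Against 1.89% of all genes, a count of 0 in lists of these sizes is near the background. Their medians lay between -0.15 for the interferon list and 0.10 for the mitochondrially encoded one. Nfkbia, the NF-kappaB inhibitor that NF-kappaB itself induces, had 125, 130 and 117 CPM at WT 6 h and 116, 119 and 125 CPM at WT 3 h (log2 change 0.05 ± 0.08, edgeR adjusted p = 0.91). Of 41 immediate early and MAP kinase feedback genes 1 rose and 4 fell (12.2% called against 1.89% of all genes), with a median of -0.15. Phlda1, a gene induced by growth factor signals, had 61.5, 49 and 50.3 CPM at WT 6 h, against 80, 85.9 and 81.1 CPM at WT 3 h (log2 change -0.62 ± 0.11, edgeR adjusted p = 0.00211). Spred1, an inhibitor of Ras signalling, fell by 0.29 ± 0.06 on the log2 scale (edgeR adjusted p = 0.0122; 0.0863 without WT 6 h replicate 3, 0.051 without WT 3 h replicate 1 and 0.0535 leaving out WT 3 h replicate 2). The rise was Atf3, a stress-induced transcription factor, with 479, 491 and 497 CPM at WT 6 h, against 389, 375 and 421 CPM at WT 3 h (log2 change 0.31 ± 0.07, edgeR adjusted p = 0.0108; 0.0557 without WT 6 h replicate 3 and 0.0708 leaving out WT 3 h replicate 2). Egr1, Fos and Jun, immediate early factors, did not pass, with log2 changes of -0.21 ± 0.11, -0.15 ± 0.12 and -0.18 ± 0.08 (edgeR adjusted p = 0.546, 0.696 and 0.325).

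A pair of genes that act where glucose enters the cell and glycolysis fell. Hk2, the hexokinase that commits glucose to glycolysis, had 164, 163 and 169 CPM at WT 6 h, against 236, 219 and 219 CPM at WT 3 h (log2 change -0.44 ± 0.06, edgeR adjusted p = 2.51e-04). Slc2a1, the glucose transporter GLUT1, had 213, 180 and 194 CPM at WT 6 h, against 247, 238 and 225 CPM at WT 3 h (log2 change -0.28 ± 0.06, edgeR adjusted p = 0.00811; 0.0819 without WT 6 h replicate 2 and 0.054 leaving out WT 3 h replicate 1). They were the 2 falls among 24 glycolysis and pentose phosphate genes, none of which rose (8.33% called against 1.89% of all genes). The median of that list was -0.16. Pgd and Taldo1, the pentose phosphate enzymes that rose, are in the NRF2 list and not in this one. Ldha and Pfkfb3, a lactate dehydrogenase subunit and a regulator of glycolytic rate, did not pass (log2 changes -0.11 ± 0.07 and 0.23 ± 0.14, edgeR adjusted p = 0.62 and 0.571). Among 20 hypoxia genes 3 fell and none rose (15% called against 1.89% of all genes), with a median of -0.10, and Slc2a1 was 1 of the 3. The other 2 were Egln1, an oxygen sensor, with a change of -0.46 ± 0.10 (edgeR adjusted p = 0.00993; 0.063 without WT 6 h replicate 2 and 0.0554 leaving out WT 3 h replicate 1), and Ak4, a mitochondrial adenylate kinase, with -1.16 ± 0.27 (edgeR adjusted p = 0.0201; 0.0535 to 0.137 without WT 6 h replicate 2 or 3 or WT 3 h replicate 2 or 3).

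Of 37 tested receptors and inflammasome genes for recognition of the fungus none rose and 2 fell, Itgam and Clec7a (5.41% against 1.89% of all genes), with a median of 0.03. Itgam overlaps another gene, and its fall was not found with overlapping genes summed (log2 change -0.04 ± 0.07, edgeR adjusted p = 0.894), as described below. Clec7a, the beta-glucan receptor dectin-1, had 1275, 1218 and 1271 CPM at WT 6 h, against 1432, 1459 and 1406 CPM at WT 3 h (log2 change -0.19 ± 0.05, edgeR adjusted p = 0.0266). The times did not overlap, but the call ended without any single one of the 6 libraries (edgeR adjusted p 0.0504 to 0.144). Of 34 NADPH oxidase and lysosomal genes 3 rose and none fell (8.82% against 1.89% of all genes), with a median of 0.00. None of the 3 calls held in every fit with a library left out. Gla, a lysosomal galactosidase, had a log2 change of 0.39 ± 0.10 (edgeR adjusted p = 0.0329; 0.0502 to 0.195 without any single library other than WT 3 h replicate 3). Atp6v0d2, a proton pump subunit, had 0.17 ± 0.04 (edgeR adjusted p = 0.0147; 0.054 to 0.108 without WT 6 h replicate 1 or WT 3 h replicate 1 or 2). The third was Gpnmb, a lysosome-associated membrane protein. Gpnmb, at 6369, 6062 and 6402 CPM in WT 6 h libraries against 5527, 5658 and 5727 CPM in WT 3 h libraries, had a log2 change of 0.16 ± 0.03 (edgeR adjusted p = 0.011; 0.0737 without WT 6 h replicate 3 and 0.0607 leaving out WT 3 h replicate 1). Among 30 dendritic cell maturation genes 1 fell and none rose, which is near the background. Among 24 autophagy genes 2 rose and 1 fell, and among 16 prostaglandin and leukotriene genes 2 rose and 1 fell. The medians of these lists were 0.09, 0.08 and 0.09, and the shares called 3.33, 12.5 and 18.8%, against 1.89% of all genes. None of the calls in these lists held in every fit with a library left out. Ccr7, the receptor that guides mature dendritic cells to lymph nodes, and Cd83, a maturation marker, did not pass (log2 changes 0.18 ± 0.21 and 0.56 ± 0.21, edgeR adjusted p = 0.82 and 0.211). Ptgir, the prostacyclin receptor, rose, with 100, 96.3 and 86.6 CPM at WT 6 h, against 80.4, 67.6 and 64.3 CPM at WT 3 h (log2 change 0.41 ± 0.08, edgeR adjusted p = 0.00596; 0.0501 without WT 3 h replicate 3).

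**Figure D2:**
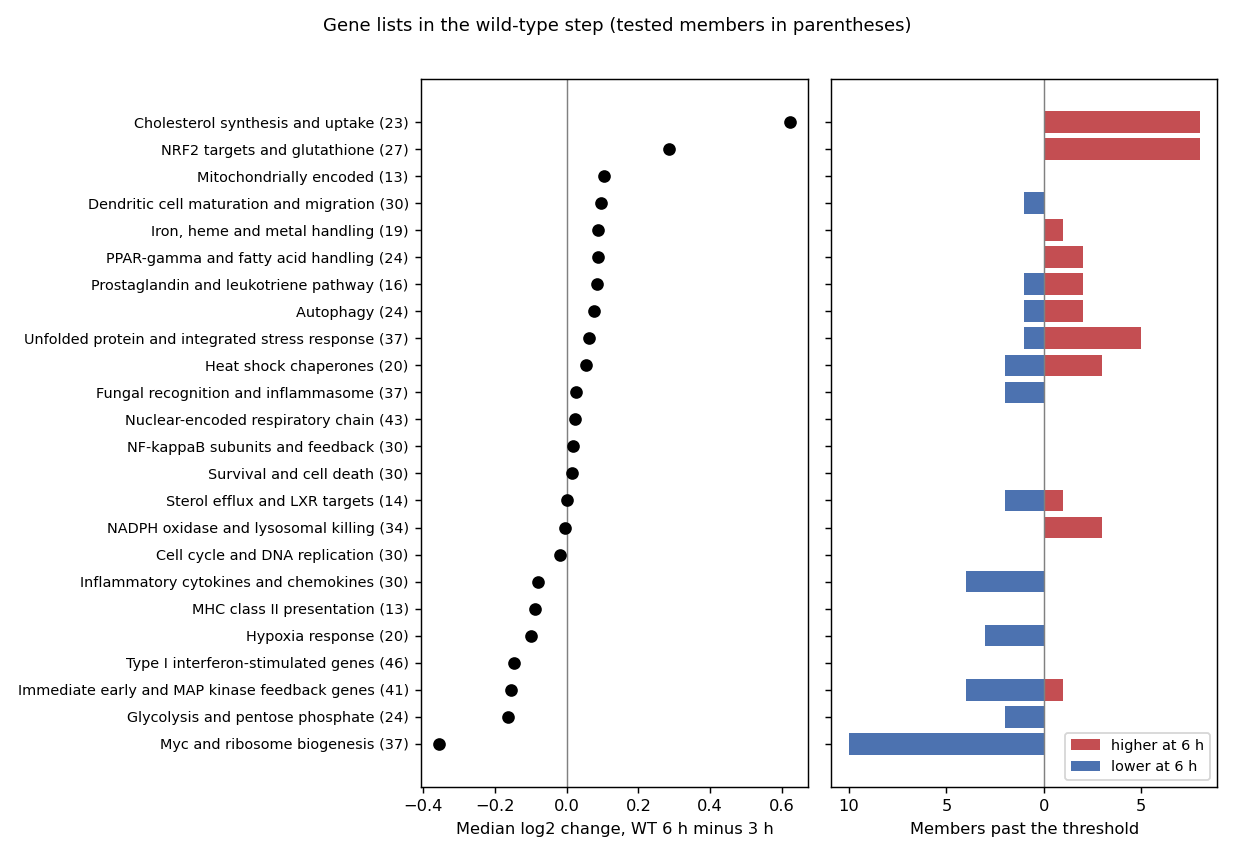
The 24 pathway lists ordered by the median log2 change of their tested members (left; number tested in parentheses) and the number of members that passed the threshold, higher at 6 h to the right and lower to the left (right). Cholesterol synthesis stands highest at 0.62 with 8 rises and ribosome biogenesis lowest at -0.35 with 10 falls.

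Genes outside the lists were led, by size of change, by a mixture of functions, and most had few counts. They were ranked among called protein-coding genes with at least 5 CPM and no overlap between times. Lack of overlap was thus a condition for naming them. Among rises that held with any library left out, Plcxd2 had 19.5, 30.6 and 20.3 CPM at WT 6 h, against 12.1, 11.4 and 8.4 CPM at WT 3 h (log2 change 1.13 ± 0.20, edgeR adjusted p = 0.00225). Rbfox2, a splicing factor, had 19.5, 14 and 18.2 CPM at WT 6 h, against 8.49, 9.19 and 7.91 CPM at WT 3 h (log2 change 1.01 ± 0.21, edgeR adjusted p = 0.00663). Neither overlapped between times. Pald1 had 5.94, 7.44 and 8.03 CPM at WT 6 h, against 18.2, 18.4 and 16.8 CPM at WT 3 h (log2 change -1.31 ± 0.27, edgeR adjusted p = 0.00753), and Plcb1, a phospholipase C of G protein signalling, had 10.6, 7.44 and 8.45 CPM at WT 6 h, against 17, 21.6 and 20.8 CPM at WT 3 h (log2 change -1.15 ± 0.20, edgeR adjusted p = 0.00196). Fst, follistatin, which binds activins, had 16.1, 14.4 and 15.2 CPM at WT 6 h, against 32.7, 30.3 and 23.7 CPM at WT 3 h (log2 change -0.92 ± 0.17, edgeR adjusted p = 0.00267). The 3 falls, too, were free of overlap by that rule. Inhba, an activin subunit, did not pass, with 462, 453 and 506 CPM at WT 6 h and 451, 414 and 466 CPM at WT 3 h (log2 change 0.09 ± 0.08, edgeR adjusted p = 0.748). Cdh1, E-cadherin, an adhesion protein, had 44.1, 31.1 and 34.2 CPM at WT 6 h, against 65.5, 69.7 and 61.8 CPM at WT 3 h (log2 change -0.85 ± 0.12, edgeR adjusted p = 3.51e-04). Chst11, a chondroitin sulfotransferase, had 240, 220 and 224 CPM at WT 6 h, against 312, 334 and 317 CPM at WT 3 h (log2 change -0.49 ± 0.07, edgeR adjusted p = 2.19e-04). Among the 10 smallest p-values were also the rises of Cyb5a, a cytochrome b5 that passes electrons to lipid desaturases, with 149 to 166 CPM at WT 6 h and 90.8 to 111 CPM at WT 3 h (log2 change 0.60 ± 0.08, edgeR adjusted p = 2.51e-04), and of Creg1, with 418 to 445 CPM at WT 6 h and 308 to 362 CPM at WT 3 h (log2 change 0.36 ± 0.05, edgeR adjusted p = 3.51e-04).

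The cultures were checked against markers. Itgax, which codes for CD11c and marks dendritic cells, had 1196, 1189 and 1216 CPM at WT 6 h and 1221, 1333 and 1228 CPM at WT 3 h, and it did not pass (log2 change -0.07 ± 0.03, edgeR adjusted p = 0.413). In the summed level of 15 identity genes of GM-CSF cultures, WT 6 h libraries had 14341 to 15766 CPM and WT 3 h libraries 16630 to 17441 CPM; without Itgam, whose reads are divided as described below, the sums overlapped, at 13627 to 15049 CPM and 14608 to 15906 CPM. None of the 14 tested identity genes rose and 4 fell (28.6% against 1.89% of all genes): Itgam, Csf2rb2, Spi1 and Irf4. None of these 4 held in every fit with a library left out, and the fall of Itgam is subject to that division of reads. The call ended for Csf2rb2, a GM-CSF receptor family subunit, without WT 6 h replicate 2 or 3 or WT 3 h replicate 2 (edgeR adjusted p 0.0559 to 0.0748). For the transcription factor Spi1 it ended without WT 6 h replicate 2 or 3 or WT 3 h replicate 1 or 2 (0.054 to 0.157). For Irf4, another transcription factor, it ended without WT 6 h replicate 2 or 3 or WT 3 h replicate 3 (0.0652 to 0.14). Macrophage markers summed to 2911 to 3090 CPM at WT 6 h and 3499 to 3553 CPM at WT 3 h, and 4 of 13 fell (Csf1r, C1qb, C1qc and Apoe; 30.8% against 1.89% of all genes) with none rising. C1qc had an edgeR adjusted p of 0.0737 without WT 6 h replicate 3 and of 0.0537 leaving out WT 3 h replicate 1. C1qb, a chain of complement C1q, had 101, 101 and 108 CPM at WT 6 h, against 135, 136 and 150 CPM at WT 3 h (log2 change -0.44 ± 0.09, edgeR adjusted p = 0.00426), and Csf1r, the M-CSF receptor, had 654, 624 and 601 CPM at WT 6 h, against 730, 720 and 742 CPM at WT 3 h (log2 change -0.22 ± 0.05, edgeR adjusted p = 0.0115; 0.0511 to 0.09 without WT 6 h replicate 2 or 3 or WT 3 h replicate 3). Apoe had 1262, 1185 and 1130 CPM at WT 6 h, against 1582, 1519 and 1485 CPM at WT 3 h (log2 change -0.36 ± 0.09, edgeR adjusted p = 0.038; 0.0738 to 0.174 without any single library other than WT 6 h replicate 1). The macrophage markers Vsig4, Cd163 and Timd4 were under 1 CPM, Vsig4 at 0 in all 6 libraries.

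Some neutrophil markers rose. Of 12 tested 4 rose and none fell (33.3% called against 1.89% of all genes), and the summed level of 18 was 1861 to 2240 CPM at WT 6 h and 1742 to 1757 CPM at WT 3 h. S100a9, a calcium-binding alarmin abundant in neutrophils, had 298, 416 and 473 CPM at WT 6 h, against 247, 236 and 290 CPM at WT 3 h (log2 change 0.62 ± 0.13, edgeR adjusted p = 0.00811; 0.0777 without WT 6 h replicate 3 and 0.0535 leaving out WT 3 h replicate 2). Its partner S100a8 had 104, 158 and 183 CPM at WT 6 h, against 90.9, 94.6 and 84 CPM at WT 3 h (log2 change 0.72 ± 0.14, edgeR adjusted p = 0.0038; 0.0557 without WT 6 h replicate 3). For both the 6 h libraries were spread wide, with replicate 1 near the 3 h values. Ngp and Chil3, further granulocyte genes, had log2 changes of 0.57 ± 0.13 (edgeR adjusted p = 0.0144; 0.145 without WT 6 h replicate 3, 0.054 without WT 3 h replicate 1 and 0.0535 leaving out WT 3 h replicate 2) and 0.53 ± 0.10 (edgeR adjusted p = 0.0056; 0.0689 without WT 6 h replicate 3). The neutrophil markers Elane, Ctsg, Ly6g and Retnlg were under 1 CPM. Of the other cell types, 1 of 10 conventional dendritic cell markers passed (Irf4, lower) and none of the markers tested for the rest. Eosinophil markers summed to 35.2 to 54.9 CPM at WT 6 h and 20.5 to 30.6 CPM at WT 3 h, without overlap, with Il5ra at 0 and a median log2 change of 0.48 over the 4 tested. Plasmacytoid dendritic cell markers summed to 37.8 to 42.7 CPM at WT 6 h and 46.9 to 53.5 CPM at WT 3 h, also without overlap, with Siglech at 0. The sums overlapped for markers of conventional dendritic cells, mast cells and basophils, erythroid cells and megakaryocytes, and stroma. Those of B cells and of T and NK cells came to at most 7.18 and 2.96 CPM. In bulk RNA, fewer cells of a type and less RNA per cell cannot be told apart, and the part of these shifts in the sterol, NRF2, Slc40a1 and ribosome results was not tested.

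Some counts were divided unevenly between overlapping genes, and some jumped between libraries. Itgam (CD11b, chr7:128062640-128118491, plus strand) overlaps Gm49368, annotated from chr7:128062683 to 128128160 on the same strand. Itgam alone had 717, 750 and 658 CPM at WT 6 h and 1170, 1535 and 2022 CPM at WT 3 h (log2 change -1.15 ± 0.25, edgeR adjusted p = 0.0166; 0.0516 to 0.0997 without any single WT 6 h replicate or without WT 3 h replicate 3). Gm49368 ran the other way, with 1273, 1122 and 1598 CPM at WT 6 h and 948, 598 and 6 CPM at WT 3 h. Summed, the pair averaged 2039 ± 197 CPM at WT 6 h and 2093 ± 57.0 CPM at WT 3 h (SD, n = 3 each), and with overlapping genes summed the log2 change was -0.04 ± 0.07 (edgeR adjusted p = 0.894), so the fall of Itgam was not found in the pair. Lars2, a mitochondrial leucyl-tRNA synthetase, had the largest fall, -7.04 ± 1.52 (edgeR adjusted p = 0.0161; 0.071 to 0.0837 without any single WT 6 h replicate): 20, 32 and 37 counts at WT 6 h against 3345, 3547 and 3582 at WT 3 h. It had 2102 counts in WT 9 h replicate 2 and 2415 in KO 9 h replicate 1, and 86 or fewer in every other library of the study, so its level jumped between libraries of 1 group at 9 h. Lars2 was at 0 in no library, and its call held with overlapping genes summed. Jumps from 0 in 1 library to at least 100 counts in another of the same group were seen in 6 genes at WT 6 h and 10 at WT 3 h. Of the 234 called genes, 5 varied at least 10-fold within some group. The 4 copies of 5S ribosomal RNA that rose (Gm24312, n-R5s106, n-R5s118 and n-R5s130) had nearly the same counts, 163 or 164, 172 and 212 at WT 6 h against 87, 70 and 87 at WT 3 h, and stand for 1 measurement (log2 change 1.02, edgeR adjusted p = 3.65e-04).

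**Figure D3:**
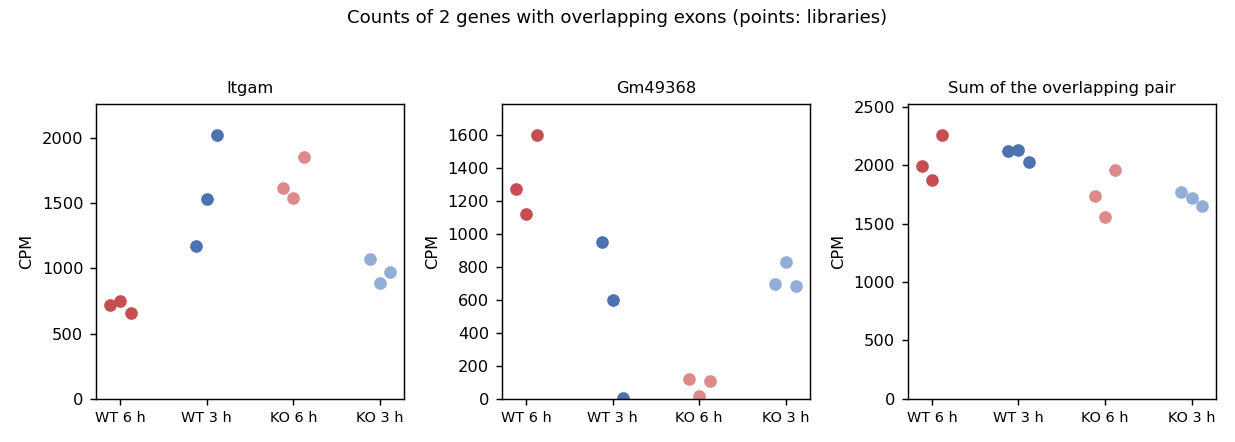
CPM of Itgam, of the overlapping Gm49368 and of their sum in each library at 6 h and 3 h, WT on the left and KO on the right of each panel (linear axes from 0; points are libraries). At WT 6 h Itgam is low and Gm49368 high, and the sums of all WT libraries lie together.

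The same interval in Nlrx1-deficient cells gives a set of 6 libraries that the WT step does not use. WT and KO calls come from the same fit, with a shared estimate of the spread for each gene, and are thus not independent. KO 6 h against KO 3 h gave 181 genes past the threshold, 78 higher (0.629%) and 103 lower (0.831%), or 1.46% of those tested. Of the 234 genes of the WT step, 224 (95.7%) had the same sign in KO, against 61.2% of all tested genes; these were 92 of the 99 rises and 132 of the 135 falls. In the same direction 74 passed in both, 32 rises and 42 falls, which is 31.6% of the WT genes and 40.9% of the KO genes. The median KO log2 change was 0.33 for the WT rises and -0.28 for the WT falls, against 0.00 for all genes. These medians lie nearer 0 than those in WT, but the genes were chosen on the WT values, so that smaller values in KO are no sign of a weaker step there. With 1 of the 6 KO libraries left out the KO count was 96, 82 and 96 without KO 6 h replicates 1, 2 and 3 in that order, and 129, 77 and 83 without KO 3 h replicates 1, 2 and 3.

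The difference itself was tested as the WT step minus the KO step. No gene passed (0% of 12393) by edgeR's quasi-likelihood test; 636 genes, or 5.13%, had an unadjusted p under 0.05, and the smallest edgeR adjusted p was 0.0861. DESeq2 called 2 genes, Itgam and Gm20431, with log2 differences of -1.93 and 21.7. Itgam is divided with Gm49368 as above, and the value for Gm20431 is too large to be read as a measured fold. With 1 of the 12 libraries left out 0 to 2 genes passed: Peak1 without WT 6 h replicate 1, Zfp322a without WT 6 h replicate 3, Hagh without WT 3 h replicate 1, Gm49368 without WT 3 h replicate 3, and Sh3bp1 and Tmem164 without KO 3 h replicate 2. A step that misses the threshold is not shown to be equal in both genotypes. Small RNA genes took 3.61 to 4.28% of counts at KO 6 h and 3.57 to 3.70% at KO 3 h, below both WT groups. With that share as a covariate no gene passed for the difference either, and 652 had an unadjusted p under 0.05.

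By group, the cholesterol list had 3 rises and no fall among 23 tested genes in KO, with a median of 0.46. The NRF2 list had 6 rises and no fall among 27, with 0.20, and the ribosome list no rise and 7 falls among 37, with -0.33. Over all tested genes 0.629% rose and 0.831% fell in KO. These list counts were not refitted with a KO library left out. Hmgcs1 had 82, 70.6 and 56.4 CPM at KO 6 h, against 31.4, 43.7 and 43.5 CPM at KO 3 h, a log2 change of 0.80 ± 0.15 against 0.84 ± 0.16 in WT (WT minus KO 0.03, unadjusted p = 0.884). Slc7a11 had 996, 1012 and 1009 CPM at KO 6 h, against 827, 836 and 823 CPM at KO 3 h, at a higher level than WT at both times and with a log2 change of 0.28 ± 0.03. Ncl had 491, 512 and 535 CPM at KO 6 h, against 663, 688 and 692 CPM at KO 3 h, and its change of -0.41 ± 0.05 stood beside -0.38 ± 0.05 in WT. In these genes the KO libraries also did not overlap between times. Slc40a1, Hmox1, Hk2, Ccl4, Ptx3 and Cdh1 also passed in KO, with log2 changes of 0.86 ± 0.16, 0.36 ± 0.06, -0.45 ± 0.06, -0.54 ± 0.09, -0.47 ± 0.09 and -0.85 ± 0.12 in that order. The heat shock genes Hspa1a and Hspa1b had 0.15 ± 0.14 and 0.33 ± 0.15 in KO, and Cd36 had 0.09 ± 0.04, and did not pass there; their differences between genotypes of 0.58, 0.55 and 0.15 had unadjusted p-values of 0.012, 0.02 and 0.018 and did not pass after adjustment.

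**Figure D4:**
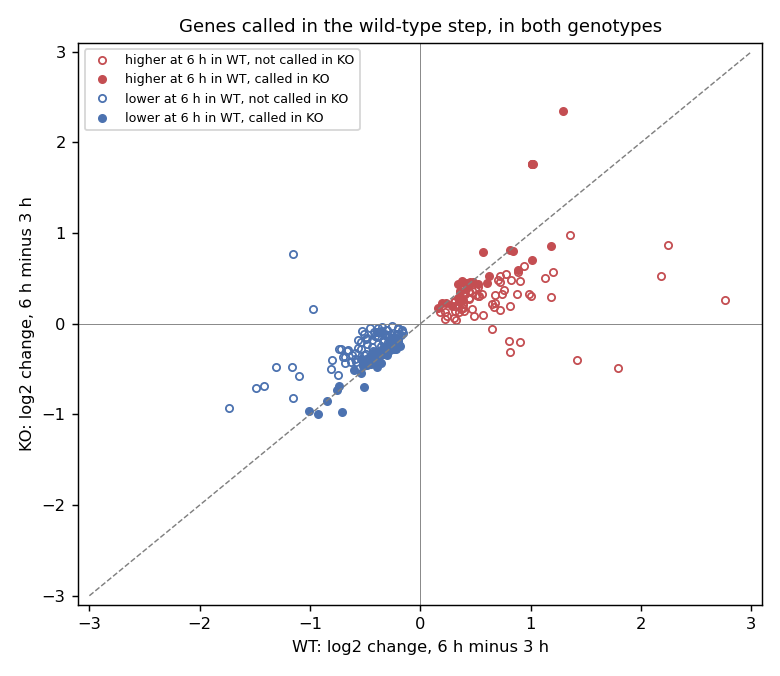
Log2 change from 3 h to 6 h in WT (horizontal) and KO (vertical) for 229 of the 234 genes called in WT; 5 genes with a change beyond 3 are not drawn. Filled points also passed in KO, the dashed line marks equal changes, and most points lie in the quadrants of equal sign.

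Later times show where the step stands in the course, as group means. Hmgcs1 averaged 35.8 ± 6.0, 32.5 ± 1.3, 58.2 ± 7.1, 58.2 ± 2.9 and 38.3 ± 6.0 CPM at 0, 3, 6, 9 and 12 h in WT (SD, n = 3 each). Its mean was highest at 6 and 9 h. Slc40a1 averaged 11.9 ± 2.3, 22.8 ± 3.1, 51.9 ± 9.4, 55.4 ± 3.0 and 14.2 ± 0.89 CPM at those times, and Hmox1 457 ± 27, 748 ± 15, 958 ± 53, 1169 ± 16 and 641 ± 61 CPM. Both means were already higher at 3 h than at 0 h, peaked at 9 h and were lower again at 12 h. Slc7a11 averaged 503 ± 11, 603 ± 25, 762 ± 22, 902 ± 22 and 824 ± 21 CPM, with its highest mean at 9 h too. Ncl averaged 800 ± 52, 818 ± 26, 631 ± 2.9, 561 ± 15 and 525 ± 8.6 CPM, and Ubtf 127 ± 5.9, 123 ± 10, 81.1 ± 4.5, 77.4 ± 5.8 and 76.2 ± 6.6 CPM. Their means were close at 0 and 3 h and lower from 6 h on. Ptx3 averaged 224 ± 14, 193 ± 6.3, 134 ± 18, 138 ± 21 and 346 ± 9.2 CPM, lowest at 6 and 9 h and highest at 12 h.

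**Figure D5:**
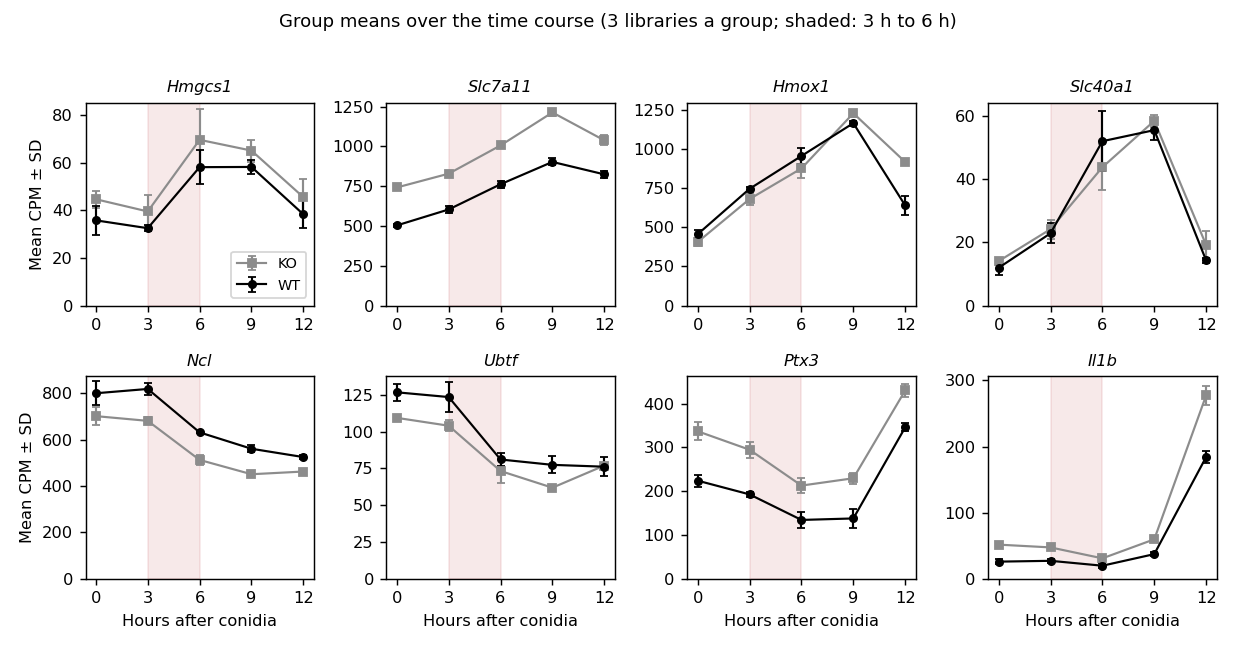
Mean CPM ± SD (n = 3) over 0 to 12 h in KO (grey squares) and WT (black circles) for 8 genes, with the interval from 3 h to 6 h shaded (linear axes from 0). Hmgcs1, Slc7a11, Hmox1 and Slc40a1 climb across the shaded interval, Ncl, Ubtf and Ptx3 drop, and Il1b is low until 9 h.

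The step was also set against the last one, WT 12 h against WT 9 h, which shares no library with it. More genes passed the threshold in that later step, 1305 (10.5%, with 640 higher, 5.16%, and 665 lower, 5.37%). Its libraries had total counts of 3020533 to 3163518 at WT 9 h and 2447460 to 3509429 at WT 12 h. Those at WT 3 h had 2020967 to 2567135 and those at WT 6 h 2405405 to 2505389. The part of this depth in the number of genes passing was not tested. The WT step from 3 to 6 h minus the WT step from 9 to 12 h passed in 771 genes (6.22%; 402 higher, 3.24%, and 369 lower, 2.98%). With the small RNA share as a covariate 71 genes passed for this difference. That share was 3.82 to 4.01% at WT 12 h and 5.55 to 6.53% at WT 9 h, and its part was not tested further. The step from 9 to 12 h by itself and the counts that follow were not refitted with the covariate. Of the 99 rises from 3 to 6 h, 35 fell and 8 rose from 9 to 12 h, with a median of -0.19; of the 135 falls, 39 rose and 19 fell, with a median of 0.05. The lists differed in this. From 9 to 12 h the cholesterol list had 11 falls and no rise with a median of -0.66, and the NRF2 list 21 falls and no rise with -0.63. The inflammatory list had 18 rises and no fall with 0.81, and the ribosome list 3 rises and 2 falls with 0.11. Between the steps 14 of 23 cholesterol genes and 20 of 27 NRF2 genes were higher from 3 to 6 h than from 9 to 12 h and none lower, and 15 of 30 inflammatory genes were lower and none higher.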

How the data were processed

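RNA of 30 libraries was sequenced by the submitters with a strand-specific mRNA kit, per the labels. The submitters' processing notes name the build GRCm38 and the tools HISAT2, StringTie, DESeq2 and Trimmomatic 0.35; the counting step, annotation and strand setting they used are not given. The deposited counts are whole numbers for each Ensembl gene and were taken, from their values, as the authors' raw counts. The submitters' tables of comparisons were not used. Gene names and coordinates came from GENCODE M21 (54495 of the IDs found, 37 not), promoters from RefSeq.

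The filter filterByExpr (minimum count 10) of edgeR 4.0.16, under R 4.3.3, kept 12393 genes with 98.7% of the counts. After TMM scaling, a robust quasi-likelihood model with 20 residual degrees of freedom and 1 coefficient for each group of genotype and time took in the 30 libraries. Contrasts were WT 6 h minus WT 3 h, that step minus the KO step, the KO step, and the WT step from 3 h to 6 h minus that from 9 h to 12 h. The WT step from 9 h to 12 h was also fitted by itself, in the main model only. P-values are two-sided and Benjamini-Hochberg adjusted over all genes kept (threshold 0.05). Errors of log2 changes are standard errors derived from the change and the F statistic of its test. Totals ran from 1722384 to 3509429 counts per library, which limits what can be seen in genes of low count. No pair of libraries within the 2 groups agreed within sampling noise (chi-square per degree of freedom 3.08 to 4.44).

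The members of the lists, the markers and the comparison were chosen with earlier results of these data known. Genes were named by rule: among called protein-coding genes of 5 CPM or more whose times did not overlap, the 12 largest rises and falls and the 10 smallest p-values; up to 4 called members of each list; a set of genes of wide interest; and the 8 smallest p-values of the other contrasts. Further called members of a list, GENCODE gene Gm49368 and genes that passed in a single alternative fit were named after their values were seen. Alternatives were RLE size factors, DESeq2 1.42.0, no count filter, scaling on protein-coding genes, the small RNA share as a covariate, a replicate block, each library left out, the 6 libraries of a genotype alone, and glmTreat against a fold of 1.2. Summing genes with overlapping exons was added after seeing the data. The fit was also run on simulated data, and the outcome is not reported here. Some genes are not reported here by name, though list counts and medians include them.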

Additional observations from a re-analysis of the deposited data

Results flagged for a closer look

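The WT step from 3 h to 6 h differed from the WT step from 9 h to 12 h in 771 genes by edgeR's quasi-likelihood test, and the 8 genes of smallest p among those with at least 5 CPM are given here because the difference itself passed. Differences are log2 changes of the earlier step minus those of the later one. The steps share no library.

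Of the inflammatory and signal genes, Ptx3 fell and the others did not pass in the earlier step, and all had positive changes in the later one. Il1b, an interleukin-1 precursor, differed by -2.76 ± 0.16 (edgeR adjusted p = 6.86e-12), with 186, 175 and 192 CPM at 12 h, against 40.2, 34.7 and 37 CPM at 9 h. Egr1, an immediate early factor, differed by -2.37 ± 0.15 (edgeR adjusted p = 1.79e-11), Inhba, the activin subunit, by -1.92 ± 0.12 (edgeR adjusted p = 2.95e-11), and Ptx3, the pattern receptor, by -1.85 ± 0.13 (edgeR adjusted p = 8.56e-11). The later steps of Egr1, Inhba and Ptx3 were 2.16 ± 0.09, 2.02 ± 0.09 and 1.33 ± 0.09.

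Antioxidant and iron genes turned the other way. Slc40a1, the iron exporter, differed by 3.13 ± 0.22 (edgeR adjusted p = 2e-10), with 15.2, 13.9 and 13.5 CPM at 12 h, against 52, 56.8 and 57.4 CPM at 9 h. Hmox1, the heme-degrading enzyme, differed by 1.22 ± 0.09 (edgeR adjusted p = 1.21e-10), Txnrd1, thioredoxin reductase, by 1.00 ± 0.06 (edgeR adjusted p = 1.79e-11), and Pgd, of the pentose phosphate pathway, by 0.95 ± 0.06 (edgeR adjusted p = 5.22e-11). The later steps of Hmox1, Txnrd1 and Pgd were -0.87 ± 0.06, -0.66 ± 0.04 and -0.67 ± 0.04.

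With the small RNA share as a covariate the differences of the 8 genes still passed, at -2.75 for Il1b, -2.24 for Egr1, -1.46 for Inhba, -1.73 for Ptx3, 3.20 for Slc40a1, 1.01 for Hmox1, 0.95 for Txnrd1 and 1.01 for Pgd (edgeR adjusted p 1.16e-05 to 7.45e-04), while the count over all genes was 71.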

How the results depend on the processing

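The 234 genes of the WT step became 248 with RLE size factors, 195 with DESeq2, 243 with scaling on protein-coding genes, 246 with the small RNA share as a covariate and 240 with overlapping genes summed. Larger moves were 66 with no count filter (46958 genes tested), 67 in the 6 WT libraries alone and 12 against a fold of 1.2, and 105 to 198 with a library left out. The share of rises was 42.3% and became 75% against a fold of 1.2. Correlations between deviations of WT 6 h and WT 3 h libraries were small, at 0.0124 to 0.0191 for the same replicate number and -0.0259 to 0.00823 for different numbers. They do not settle whether replicate numbers pair the samples. A replicate block gave 216 genes in the 30 libraries and 7 in the 6 WT libraries alone, where 5 were rises. For the WT step minus the KO step the count of 0 became 2 with DESeq2 and 0 to 2 with a library left out. The KO step, 181 genes with 43.1% rises, gave 55 with no filter (34.5% rises), 39 in the 6 KO libraries alone (59% rises) and 77 to 129 with a library left out, and 153 with the block. The 771 genes of the step minus the later step gave 437 with no filter (61.1% higher, against 52.1%), 71 with the covariate and 631 to 713 with a library left out. The cause of these moves was not tested, and some of the settings also have fewer samples or more genes. By list, the 8 rises of the cholesterol list, the 8 of the NRF2 list and the 10 falls of the ribosome list became 4, 3 and 3 with no filter, 4, 4 and 1 in the 6 WT libraries alone, and 0 in each with the block in those 6 or against a fold of 1.2; of 720 list counts under the alternatives 170 moved by over 1.5 times or to or from 0. Of 2280 values of named genes under the alternatives none reversed, 597 missed the threshold that the gene passed before, and 8 passed it newly. With library totals of 1722384 to 3509429 counts, genes of a few CPM rest on few reads, and changes of the size reported for abundant genes were not detectable in them.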
